A study of Mus musculus with 10 samples.

Results

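The early growth response genes Egr1, Egr2, Egr3 and Egr4, and the genes of their corepressors Nab1 and Nab2, were examined in mouse embryonic stem cell (ESC) lines. These 6 genes, of 20206 in the table, were chosen by symbol, and a symbol listed on several rows would have been selected on the highest mean over the lines. Each had 1 row, so no measured value decided which row was used. RNA had been sequenced from 10 wild-type lines derived from blastocysts of C57BL/6 mothers, 5 lines from mothers fed a low protein diet (LPD, 9% casein) and 5 from mothers fed a normal protein diet (NPD, 18% casein). The mothers were 7 to 9 weeks old and ate the diet until embryonic day 3.5, when the blastocysts were collected. All lines were then grown under the same conditions, with leukemia inhibitory factor and serum replacement, and RNA was taken after the feeder fibroblasts had been removed. The LPD lines carry the numbers 1, 4, 6, 20 and 40 and the NPD lines 8, 15, 21, 36 and 51. A line is 1 clone and 1 library, so a difference between diets is judged here against the spread between lines.

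Egr proteins are zinc finger transcription factors that bind GC-rich sites. Their genes are immediate early genes, which are transcribed within minutes of a growth signal through the ERK cascade and serum response factor (SRF), and their transcripts are short-lived. Nab1 and Nab2 bind Egr1, Egr2 and Egr3 and repress transcription with them, in part through the NuRD chromatin complex. Nab2 is itself induced by Egr factors and so closes a negative feedback loop.

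To show what lies in front of these genes, the 250 bases before a transcription start were taken from RefSeq (GRCm38.p6), which held 5 start windows for Egr2 and 1 each for Egr4, Nab1 and Nab2. No window was available for Egr1 or Egr3, so neither gene was searched. A CArG box, the motif bound by SRF, was found on either strand in 4 of the 5 Egr2 windows, some of which overlap, and in no window of Egr4, Nab1 or Nab2. Over all 32851 windows of the mouse genome it was found in 1.47%. The core TGACG of the site bound by CREB, which lies within the full site TGACGTCA, was found in 3 Egr2 windows and in those of Egr4 and Nab1, against 17.8% of all windows. The full site was found in no window of Egr2, Egr4, Nab1 or Nab2 (1.55% of all windows). An Egr site, GCGNGGGCG, was found in the Nab1 window, against 4.7% of all windows, and in no window of Nab2, Egr2 or Egr4. The Egr2 stretch below is chr10:67537619-67537868 on the plus strand, the Egr4 stretch is chr6:85513590-85513839 on the minus strand, and neither touches an annotated exon in GENCODE M21. They are shown because they hold motifs of the pathways that switch on immediate early genes, and capitals mark the CArG box (CCATATATGG, bases 72 to 63 before the start) and the TGACG cores, which read CGTCA where they lie on the other strand. The Nab1 site is chr1:52500571-52500599 on the minus strand, inside a first exon of a longer transcript, and its capitals mark the first of 3 Egr site matches, read from the other strand.
Egr2 upstream: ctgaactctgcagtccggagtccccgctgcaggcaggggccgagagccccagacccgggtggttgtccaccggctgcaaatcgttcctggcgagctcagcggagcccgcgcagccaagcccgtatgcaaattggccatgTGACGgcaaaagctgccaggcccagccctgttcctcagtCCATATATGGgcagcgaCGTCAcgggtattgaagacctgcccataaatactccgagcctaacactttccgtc
Egr4 upstream: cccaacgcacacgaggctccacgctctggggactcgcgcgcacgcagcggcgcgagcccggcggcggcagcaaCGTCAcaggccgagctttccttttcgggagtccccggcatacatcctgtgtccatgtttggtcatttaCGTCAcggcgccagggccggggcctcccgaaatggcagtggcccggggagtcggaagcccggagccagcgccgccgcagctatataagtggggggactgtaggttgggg
Nab1 site: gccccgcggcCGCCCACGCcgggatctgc
These matches describe letters in the windows, and no binding was measured.

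The values are normalised read counts, estimated per gene by the authors and scaled between lines, and not whole reads. Dividing a line's total by the value of a single read gave its depth, 20401110 to 24140765 read equivalents in 7 lines, 12355956 in LPD 6, 11248608 in LPD 40 and 5844950 in LPD 4. The labels call every line male. The Y-linked gene Ddx3y was at 1110 to 1493 in 8 lines, but at 174 in LPD 4 and 7.70 in NPD 15, so those 2 lines went against that label. Their median log2 deviation over 334 X-linked genes was 0.00 in LPD 4 and 0.49 in NPD 15. Below, results are given with and without them where this moved a call or a value by over 1.5 times. Pluripotent cell markers were present in every line, with a summed level of 94274 to 116148 in the LPD lines and 89901 to 115991 in the NPD lines. In bulk RNA, fewer cells that express a gene and less RNA per cell cannot be told apart.

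Over the whole family, the 4 Egr genes reached their highest values in LPD 1 and LPD 4, while both Nab genes reached theirs in LPD 20 and LPD 6. LPD 40 had the lowest LPD value of each Egr gene, lay among the NPD lines for Egr1 and Egr4, and was listed below them all for Egr2 and Egr3. Its Egr2 and Egr3 values were both under the worth of 3 reads in that line. All 6 genes had a higher mean in the LPD lines, but none had all 5 LPD lines above all 5 NPD lines, and none passed an adjusted p of 0.1 in limma, where 0% of the 14354 genes tested passed. Of the 6, 3 (Egr2, Egr3 and Egr4) were higher in LPD at an unadjusted p under 0.05, a mark that 2.84% of all genes passed in that direction, and none was lower, against 2.18% of all genes. Egr2 and Egr3 met the filter for testing, a mean of at least 10 over all lines, only through LPD lines (NPD means 2.14 and 8.04). The 6 genes were also chosen with earlier results of these data known, so this count is a description only. A full separation of the lines, with LPD above, was seen in 0.523% of all genes. By an exact two-sided Mann-Whitney test the unadjusted p was 0.151 for Egr2, 0.151 for Egr3 and 0.0556 for Egr4. An unadjusted p under 0.05 was kept in 14 of 22 alternatives for Egr2, 22 of 23 for Egr3 and 21 of 22 for Egr4. The median log2 fold change of the 6 was 2.33 and that of all genes 0.00. With each line rescaled to the same total, the share of genes higher in LPD among those at an unadjusted p under 0.05 went from 56.6% to 40.2%, and the 6 genes remained higher in LPD.

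**Figure D1:**
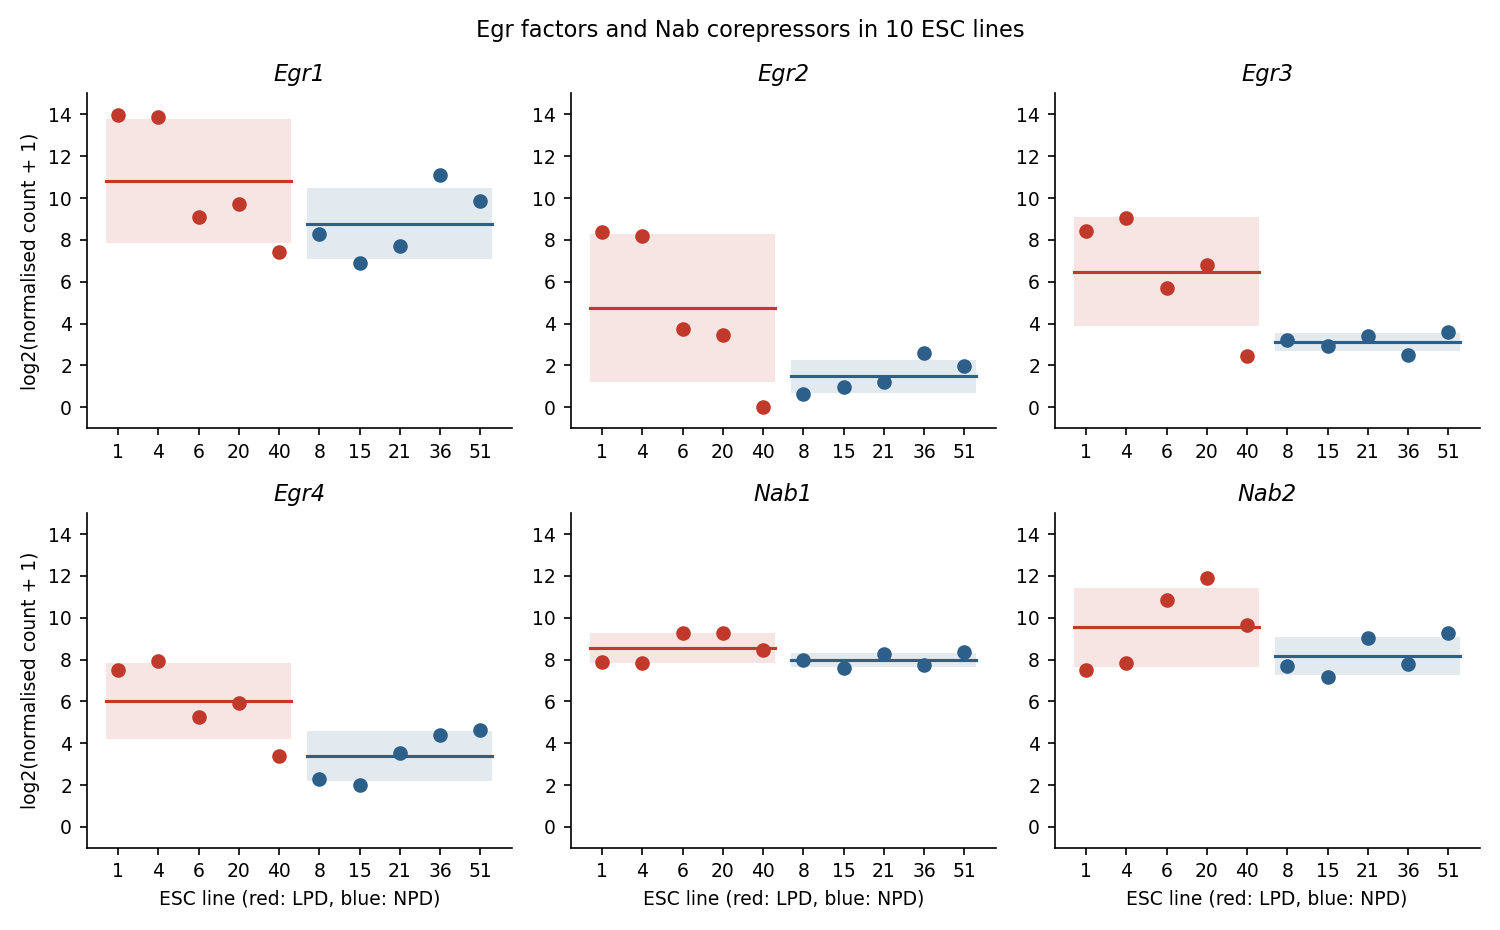
Level of each gene in each ESC line, as log2(normalised count + 1), with LPD lines in red and NPD lines in blue. Horizontal lines are the diet means and shaded bands are 1 SD over 5 lines. The Egr genes were highest in LPD 1 and 4, and the Nab genes in LPD 20 and 6.

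Egr1, the most studied member and a sensor of growth factor signals (ENSMUSG00000038418, GRCm38 chromosome 18, 34859823 to 34864984, plus strand), had normalised counts of 16051, 15176, 548, 831 and 170 in LPD 1, 4, 6, 20 and 40. In NPD 8, 15, 21, 36 and 51 it had 314, 118, 209, 2188 and 944. LPD 1 and LPD 4 stood far above all others, while LPD 6, 20 and 40 lay within the range of the NPD lines. The highest line was 136 times the lowest. The mean was 6555 ± 8278 in LPD and 754 ± 864 in NPD (SD, n = 5 each), and the log2 fold change was 2.04 (limma, standard error 1.22, 95% interval -0.60 to 4.68, adjusted p = 0.994). By exact two-sided permutation of the 252 assignments of 5 and 5 lines, p was 0.238, where the smallest p possible is 0.00794. Without LPD 4 and NPD 15 the log2 fold change was 0.80, less by over 1.5 times.

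Egr2, a factor known for hindbrain patterning and myelination (ENSMUSG00000037868, chromosome 10, 67535475 to 67542188, plus strand), had 329, 294, 12.2, 10.0 and 0 in LPD 1, 4, 6, 20 and 40. NPD lines 8, 15, 21, 36 and 51 held 0.573, 0.991, 1.28, 5.00 and 2.87. In LPD 4, the shallowest line, this value stood for 102 read equivalents, and in LPD 1 for 433, while the NPD lines held 0.734 to 6.87 read equivalents. The 0 in LPD 40 allows up to 4.74 normalised counts, the worth of 3 reads there (counting error only), so LPD 40 cannot be set apart from the NPD lines. The other 4 LPD lines lay above every NPD line. LPD 6 and 20 held only 8.85 and 13.2 read equivalents, however, against 6.87 in NPD 36. By counting error their place above NPD 36 is thus uncertain. The log2 fold change was 3.28 (limma, standard error 1.34, 95% interval 0.38 to 6.17, unadjusted p = 0.0295, adjusted p = 0.952), and the exact permutation p was 0.0873. Without LPD 4 and NPD 15 the log2 fold change was 2.29 and the unadjusted p by limma 0.126. The same values are listed for a second identifier without a symbol (ENSMUSG00000116458), so these reads cannot be assigned to either alone.

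Egr3, known from muscle spindles and lymphocytes (ENSMUSG00000033730, chromosome 14, 70077203 to 70082614, plus strand), had 345, 527, 50.8, 110 and 4.54 in the same order of LPD lines. In the NPD lines it had 8.22, 6.53, 9.52, 4.69 and 11.3. The NPD lines were close together, with an SD of 0.43 on the log2 scale against 2.61 for the LPD lines. LPD 40 was listed below the lowest NPD line, and the other 4 LPD lines lay above the highest. In LPD 40 the value stood for 2.87 read equivalents, under the 4.74 normalised counts that 3 reads are worth there. By counting error, LPD 40 thus cannot be set below the NPD lines. The log2 fold change of Egr3 was 3.36 (limma, standard error 0.97, 95% interval 1.27 to 5.46, unadjusted p = 0.00425, adjusted p = 0.665), with an exact permutation p of 0.0476. When LPD 40 was left out, it was 4.37 with an adjusted p of 0.0164 by limma, the single member call that any alternative made. That fit leaves out the lowest LPD value of Egr3, which favours a call. Egr3 also met the filter for testing only through LPD lines (NPD mean 8.04), so the call is a description only. Over all alternatives of Egr3 the adjusted p ran from 0.0164 to 1.00.

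Egr4, the member best known from neurons and male germ cells (ENSMUSG00000071341, chromosome 6, 85511121 to 85513589, minus strand), had 182, 241, 37.6, 60.3 and 9.49 in LPD 1, 4, 6, 20 and 40. It had 3.90, 3.04, 10.6, 20.2 and 23.9 in NPD 8, 15, 21, 36 and 51. Here too 4 LPD lines lay above every NPD line, and LPD 40 lay among the NPD lines. The means were 106 ± 100 in LPD and 12.3 ± 9.44 in NPD (SD, n = 5 each). The log2 fold change was 2.63 (limma, standard error 0.81, 95% interval 0.88 to 4.39, unadjusted p = 0.00655, adjusted p = 0.681) and the exact permutation p 0.0397. Among the Egr genes, the filter of a mean of at least 10 over all lines was met by Egr2 and Egr3 only through LPD lines, since their NPD means were 2.14 and 8.04.

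Nab1 (ENSMUSG00000002881, chromosome 1, 52457294 to 52500679, minus strand), the broadly expressed corepressor, varied least. It had 237, 230, 614, 623 and 355 in LPD 1, 4, 6, 20 and 40, and 248, 195, 308, 212 and 332 in the NPD lines in their order. LPD 6, 20 and 40 lay above every NPD line, and LPD 1 and 4 lay among them. The highest line was 3.20 times the lowest, and the log2 fold change was 0.56 (limma, standard error 0.29, 95% interval -0.07 to 1.20, adjusted p = 0.994), with an exact permutation p of 0.159.

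Nab2, the inducible corepressor (ENSMUSG00000025402, chromosome 10, 127660918 to 127668568, minus strand), had 180, 230, 1833, 3823 and 801 in LPD 1, 4, 6, 20 and 40. In NPD 8, 15, 21, 36 and 51 it had 203, 144, 513, 218 and 623. The same 3 LPD lines as for Nab1 lay above every NPD line, and LPD 1 was below 4 of the 5 NPD lines. The means were 1373 ± 1522 in LPD and 340 ± 213 in NPD (SD, n = 5 each). The log2 fold change was 1.36 (limma, standard error 0.75, 95% interval -0.26 to 2.99, adjusted p = 0.994), with an exact permutation p of 0.159. Without LPD 20 it was 0.78. The gene runs tail to tail into Stat6, a cytokine signal transducer on the plus strand, and shares 40 bases with it, and the strand setting of the counting is not given in the sources used here. Stat6 had 324 to 603 in the LPD lines and 390 to 597 in the NPD lines. In LPD 6 and 20, where Nab2 was highest, Stat6 was at 428 and 400, within the NPD range. Its level thus did not rise with that of Nab2 in those lines.

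**Figure D2:**
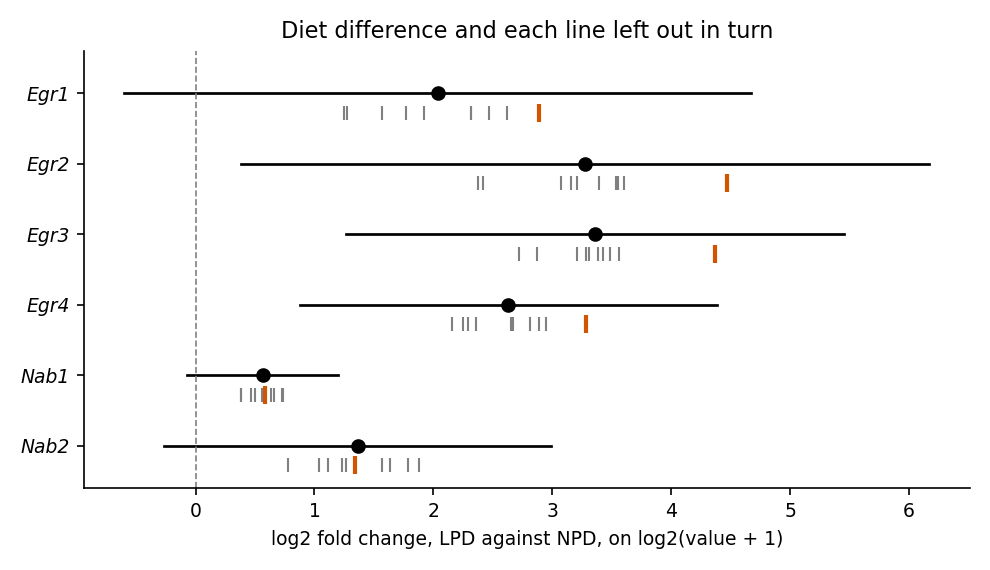
Log2 fold change of LPD against NPD for each gene on log2(value + 1), with the 95% interval from limma as a black line. Ticks under each point are the values with 1 line left out, and the orange tick is the value without LPD 40. All ticks lie above 0, and leaving out LPD 40 raised the 4 Egr genes most, to 4.37 for Egr3.

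Per kilobase of the longest protein-coding transcript, Egr1 and Nab2 had the highest median levels over the 10 lines, 154 and 144 normalised counts per kilobase. Nab1 followed with 71.8, Egr4 with 10.3, Egr3 with 2.64 and Egr2 with 1.33. The order between Egr1 and Nab2 changed from line to line, with Egr1 above Nab2 in 3 of 10 lines. The level of Egr1 per kilobase was 51.4 times that of Nab2 in LPD 1, 38.0 times in LPD 4 and 5.77 times in NPD 36, but 0.122 to 0.892 times in the other 7 lines. Nab2 lay above Nab1 in all 10 lines, by 1.11 times in NPD 15 to 9.21 times in LPD 20. Nab1 exceeded Egr4 in 8 of 10 lines, the exceptions being LPD 1 and 4. Egr4 exceeded Egr3 in 6 of 10 lines and Egr3 exceeded Egr2 in 8 of 10. Mean log2 differences per kilobase were smaller than their SD over the lines for Egr1 and Nab2 (0.13 ± 3.27) and for Egr4 and Egr3 (0.76 ± 1.06), so these neighbours did not differ beyond their spread.

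Nab1 and Nab2 varied together. Their log2 levels had a Pearson r of 0.98 and a Spearman rho of 0.90 over the 10 lines (permutation tests, 100000 resamples, p = 2e-05 and p = 7.7e-04, adjusted over the 15 pairs of genes p = 3e-04 and p = 0.00577). Without LPD 6 and 20, the lines farthest from the median of Nab1, r was 0.96 (permutation p = 9e-04, adjusted p = 0.0135), and for deviations from the diet means it was 0.97. For each Egr gene, LPD 1 and 4 lay above the other 8 lines. For Egr2, Egr3 and Egr4, LPD 6 and 20 lay between LPD 1 and 4 and the NPD lines. Over all 10 lines, r between Egr genes ran from 0.79 for Egr1 and Egr3 to 0.93 for Egr2 and Egr3. By permutation the adjusted p was 0.0162 and 0.00165 for these pairs. As the highest lines for each Egr gene, LPD 1 and 4 weigh heavily on such an r, so no relation is read from it. Within the 8 lines, r was 0.85 for Egr2 and Egr4 (permutation p = 0.0102, adjusted p = 0.0307) and 0.78 for Egr2 and Egr3 (permutation p = 0.018, adjusted p = 0.0399), but 0.28 for Egr1 and Egr3 (permutation p = 0.499). Without LPD 6 and 20 as well, r over 6 lines was 0.66 for Egr2 and Egr4 (exact permutation p = 0.151) and 0.15 for Egr2 and Egr3 (exact permutation p = 0.76). NPD 36 parted Egr1 from Egr3, with the third highest Egr1 of all lines and the lowest Egr3 of the NPD lines. Egr3 had r = 0.85 with Nab2 in the 8 lines (permutation p = 0.00806, adjusted p = 0.0307), and without LPD 6 and 20 it was 0.16 over 6 lines (exact permutation p = 0.738), so that relation rested on those 2 lines. Egr1 and Nab2 had r = 0.24 in the 8 lines (permutation p = 0.559).

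**Figure D3:**
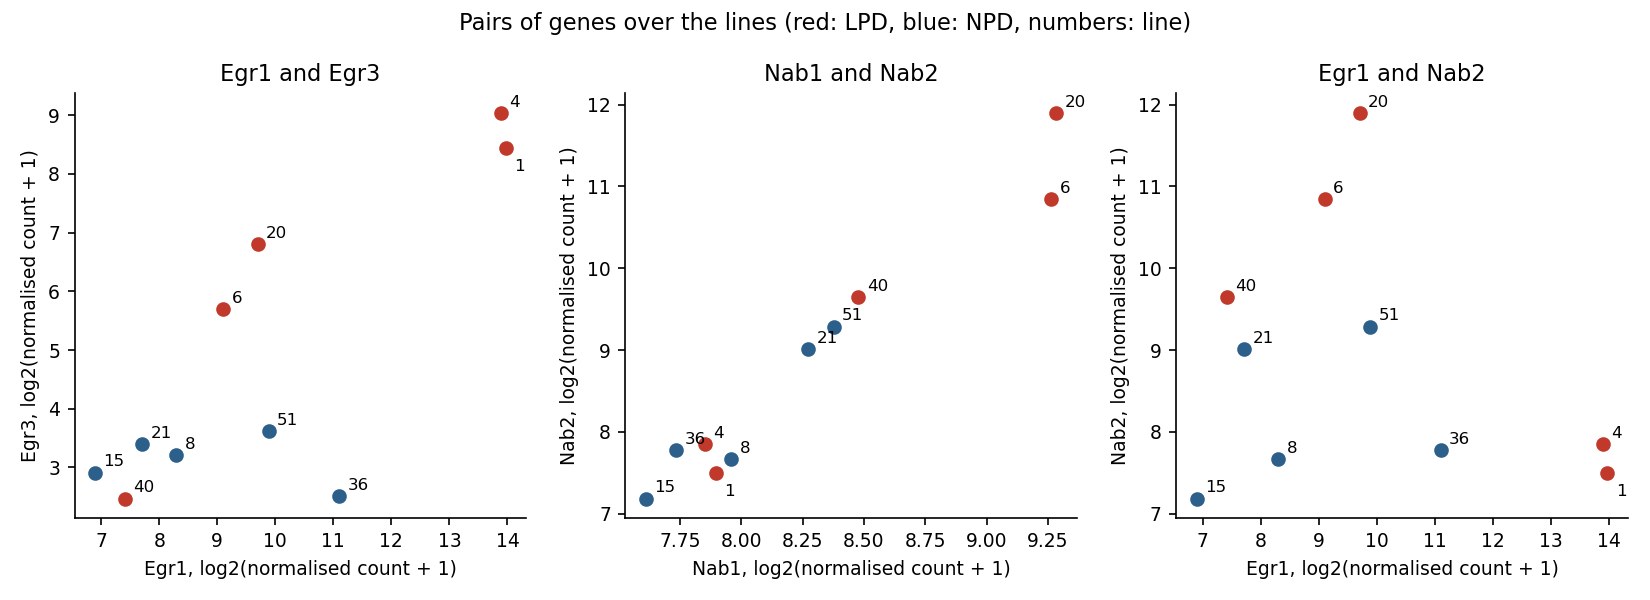
Log2(normalised count + 1) of pairs of genes over the lines, 1 point per line, with LPD in red, NPD in blue and the line number beside each point. Nab1 and Nab2 lie along 1 rising course, while LPD 1 and 4 combine the highest Egr1 with low Nab2.

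The genes most like each member were taken by Pearson r over the 10 lines among all 14354 genes tested, as a description of likeness with no test. Closest to Egr1 were Mis12 (r = 0.94), Egr2 (0.93), Ier2 (0.93), Sowahc (0.93) and Ppp1r15a (0.92). Ier2, an immediate early gene, had 5949 and 5487 in LPD 1 and 4 against 2019 to 3577 in the others, and Ppp1r15a, the regulatory subunit that reverses the stress arrest of translation, had 1031 and 781 against 458 to 723. Egr2 was closest to Junb (0.99), Tgoln1 (0.97) and Fosb (0.97), Egr3 to Ccn1 (0.97), Tgoln1 (0.96) and Tmem209 (0.94), and Egr4 to Tex19.1 (0.95), Emc3 (0.94) and Tuft1 (0.93). Nab1 was closest to Dapk3 (0.98), Blzf1 (0.98) and Nab2 (0.98), and Nab2 to Dapk3 (0.99), Id1 (0.98) and Nab1 (0.98). Dapk3, a kinase of the death-associated family, had 1340 and 1409 in LPD 6 and 20, 997 in LPD 40 and 611 to 960 in the other 7 lines.

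Srf, the factor that drives Egr transcription, had 2121, 2314, 2107, 2347 and 1136 in LPD 1, 4, 6, 20 and 40 and 689 to 1276 in the NPD lines. It was the single gene of its list of 6 with an unadjusted p under 0.05, at a log2 fold change of 0.99 (limma, standard error 0.21, unadjusted p = 3.8e-04, adjusted p = 0.341). Its partners Elk1, Elk3, Elk4, Mrtfa and Mrtfb had log2 fold changes of -0.25 to 0.05. LPD 6 and 20 had Srf levels near those of LPD 1 and 4. In LPD 6 and 20, Egr1 lay within the NPD range, while Egr2, Egr3 and Egr4 lay above every NPD line. A link between Srf and the Egr genes was not tested.

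Of 14 other immediate early genes linked to SRF, 13 had a higher mean log2 level in LPD, 9 at an unadjusted p under 0.05, and none passed adjustment. Over all genes, 50.5% had a higher mean log2 level in LPD and 2.84% were higher at that p. The median log2 fold change of the list was 0.92. Fosb, a partner of Jun proteins and among the 9, met the filter only through LPD lines, with an NPD mean of 9.41. Ccn1, a matricellular protein, had 10567, 10390, 5290, 5812 and 1330 in LPD 1, 4, 6, 20 and 40 and 991 to 1705 in the NPD lines, at a log2 fold change of 2.01 (standard error 0.45, limma, adjusted p = 0.432). The related Ccn2 and the MAPK phosphatase gene Dusp1 had log2 fold changes of 1.62 and 0.82 (limma, adjusted p = 0.435 and 0.44). Like Egr3, these genes had 4 LPD lines above every NPD line and LPD 40 near or among the NPD lines. Without LPD 4 and NPD 15, 6 of the 14 were at an unadjusted p under 0.05, and with log2 depth as a covariate 5 were. Fos, a subunit of AP-1 and a classic immediate early gene, had 1227 and 1110 in LPD 1 and 4 and 48.3 to 125 in the other lines, with 48.3 in LPD 20 the lowest of all.

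The ERK cascade itself, 18 genes from Fgf4 to the Rsk kinases, had a median difference of -0.03 on the log2 scale. Of the 18, 5 were higher in LPD, against 50.5% of all genes. That count was 3 without LPD 6 and 10 without LPD 1. At an unadjusted p under 0.05, 1 gene, the kinase gene Rps6ka3, was higher (0.46, limma, adjusted p = 0.952) and 0 were lower. Among 11 genes that feed back on ERK, 10 were higher in LPD, 6 of them at an unadjusted p under 0.05 and 0 after adjustment, beside the same 50.5% and 2.84% of all genes, with a median log2 fold change of 0.32. Phlda1, Dusp5 and Spry4 had log2 fold changes of 1.48, 1.42 and 0.82 (limma, adjusted p = 0.435, 0.44 and 0.665). Dusp5, a nuclear phosphatase of ERK, was at 1264, 1632, 1846 and 1871 in LPD 1, 4, 6 and 20, 446 in LPD 40 and 347 to 599 in the NPD lines. It was thus high in LPD 1, 4, 6 and 20, where Egr2, Egr3 and Egr4 lay above every NPD line. In LPD 40, where Nab1 and Nab2 lay above every NPD line, Dusp5 was within the NPD range. Without LPD 4 and NPD 15, 4 of the 11 were at an unadjusted p under 0.05.

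**Figure D4:**
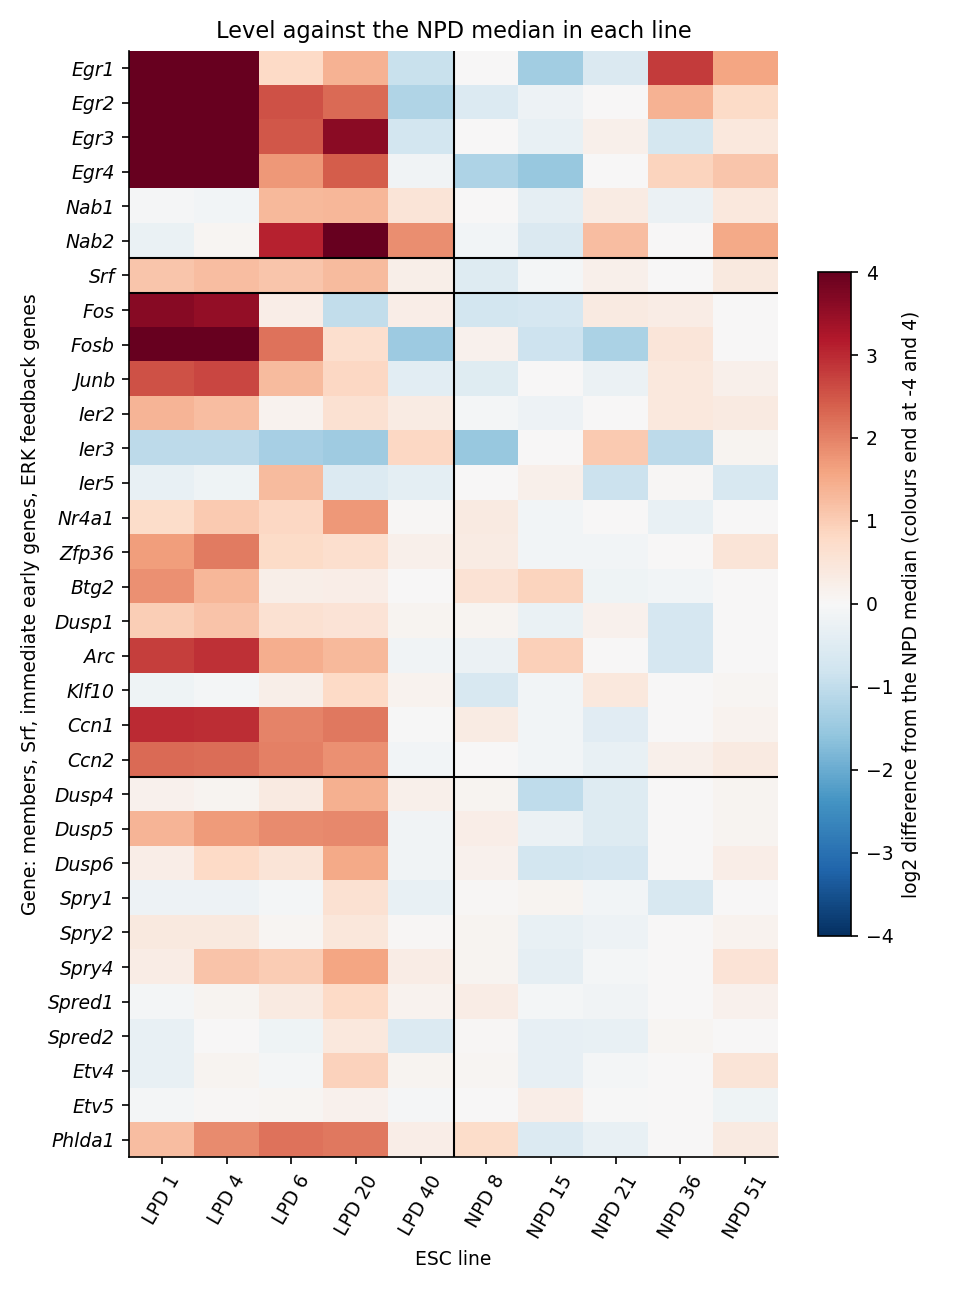
Log2 difference of each line from the NPD median for the Egr and Nab genes, Srf, 14 other immediate early genes and 11 ERK feedback genes, on log2(normalised count + 1). Red is higher and blue lower than the NPD median, and colours end at a difference of 4 in either direction. Egr1 to Egr4, Fos and Fosb are darkest in LPD 1 and 4, Nab2 in LPD 6 and 20, and LPD 40 is pale in most rows.

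Genes known as targets of Egr factors in other cells were examined next. Of 24 listed, 23 were in the table and 22 were tested. In LPD, 11 of the 22 were higher, near the share of 50.5% over all genes, with a median log2 fold change of 0.03. At an unadjusted p under 0.05, 3 were higher, among them Pdgfa (0.32) and F3 (0.70), and 0 were lower, against 2.84% and 2.18% of all genes. None passed adjustment (limma, adjusted p = 0.852 for Pdgfa and 0.86 for F3). Pdgfa, the growth factor chain with a well known Egr1 site, had 1049 and 1133 in LPD 1 and 4, below the 1445 and 1342 of LPD 6 and 20, and 789 to 1098 in the NPD lines. F3, which encodes tissue factor, was at 728 in LPD 6 and 266 to 312 in the other LPD lines. The summed level of the list was lowest among LPD lines in LPD 1, at 29371, and highest in LPD 6, at 40868, while NPD 36, with the highest NPD Egr1, had the lowest sum of all, 25868. Without LPD 4 and NPD 15, 16 of the 22 were higher, 5 at an unadjusted p under 0.05, and the median log2 fold change was 0.27. The median of all genes in that fit was 0.00.

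The NuRD complex, through which Nab2 can act, was expressed in all lines. None of its 12 genes was at an unadjusted p under 0.05, and the median log2 fold change was -0.02. Chd4, its remodelling ATPase and a partner of Nab2, had 6708 to 9644 in the LPD lines and 7385 to 8968 in the NPD lines. Rbbp4, a histone-binding subunit, had 8539 to 9908 and 7524 to 9774.

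Levels of other cell types were set beside these results. Fibroblast markers, of which 8 of 11 were tested, 0 at an unadjusted p under 0.05, summed to 478, 705, 3578, 816 and 508 in LPD 1, 4, 6, 20 and 40 and to 512 to 5766 in the NPD lines. Their median log2 fold change was -0.99, and 2 of the 8 had a higher mean log2 level in LPD. Without LPD 4 and NPD 15 the median was -0.18 and 3 of the 8 were higher. Without NPD 15 alone it was -0.25 and 4 were higher, so the lower LPD median rested largely on NPD 15. With the leading principal component of the spread between lines of the same diet added to the fit, and also without LPD 6, 4 of them (Col1a1, Col1a2, Pdgfrb and Prrx1) were lower in LPD at an unadjusted p under 0.05. Col1a1 and Col1a2, the chains of type I collagen, were at 178 and 81.0 in LPD 1, at 348 and 94.4 in LPD 4 and at 2709 and 1442 in NPD 15. LPD 1 thus had the lowest fibroblast sum of all lines, and LPD 4 lay in the middle of the order. Nab2 was high in LPD 6, where fibroblast markers were high, and higher still in LPD 20, where they were not.

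Primitive endoderm markers (7 of 7 tested, 0 at an unadjusted p under 0.05) summed to 710 to 6871 in LPD, highest in LPD 1 and lowest in LPD 6, and to 502 to 7502 in NPD, highest in NPD 36. LPD 1 and NPD 36 also had the highest Egr1 of their diet, whereas LPD 40, with a primitive endoderm sum of 5211, had the lowest Egr1 of the LPD lines. Dab2 and Cubn, endocytic genes of that lineage, were at 1672 and 2696 in LPD 1 and at 843 and 1575 in LPD 40. Trophectoderm markers (5 of 6 tested, 0 at an unadjusted p under 0.05) summed to 8119 in LPD 6, with Krt8 at 4577 and Krt18 at 3053, and to 1290 to 2584 in the other lines. The sum in LPD 6 thus rested on these keratin genes. Its Cdx2, Eomes, Hand1 and Elf5 were at 29.2, 382, 75.4 and 1.92. The highest values in other lines were 97.9, 412, 278 and 6.18. Neural ectoderm markers (3 of 4 tested, 0 at an unadjusted p under 0.05) summed to 1824 and 1924 in LPD 6 and 20, with Nes at 1169 and 899, and to 761 to 1568 elsewhere. Sox1 was at 494 to 936 in LPD and 599 to 1049 in NPD. In LPD 6 it was at 550, below every NPD line, and in LPD 20 at 936, within the NPD range. Pax6 and Zic1 lay within the NPD range in both lines. The part of these cell types in the Egr and Nab levels was not tested.

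Heat shock genes (8 tested, 0 at an unadjusted p under 0.05) were set beside them as a sign of stress. Their sum was 149671 in LPD 1, the lowest of all lines, and 237820 in LPD 20, the highest, with Hspa8 at 58246 and 88823 and Hsp90aa1 at 64510 and 115080. LPD 1, with 21889877 read equivalents, and LPD 4, with 5844950, had nearly the same Egr1 and Egr2. With log2 depth as a covariate, the log2 fold changes were 1.66 for Egr1, 2.93 for Egr2, 3.27 for Egr3, 2.48 for Egr4, 0.79 for Nab1 and 1.97 for Nab2 (limma, adjusted p = 0.999 for each). In that fit the unadjusted p by limma was 0.107 for Egr2, 0.0425 for Nab1 and 0.0494 for Nab2, so Egr2 no longer passed 0.05 and both Nab genes did.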

How the data were processed

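RNA from 10 ESC lines was sequenced as mRNA. The authors trimmed adaptors, quantified GRCm38 transcripts with Salmon and deposited 1 normalised signal per gene and line, an estimated count whose table name says DESeq2. The labels' processing notes name cutadapt, Salmon and sleuth 0.30.0. How transcripts were summed to genes is not given in the sources used here. Between 69.3% and 75.4% of low values were whole multiples of the value of 1 read (tolerance 0.15), so whole reads were not recovered and no count model was run. In genes with a single transcript the share was 92.7% to 99.7%. Depth is the total of a line over the value of 1 read.

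Values were transformed as log2(value + 1), which understates changes of low genes, and 14354 of 20206 genes with a mean of at least 10 were tested with limma 3.58.1 (mean-variance trend) in R 4.3.3, with Benjamini-Hochberg adjustment over all genes and a threshold of 0.1. The script was tested on simulated data. The members and the gene lists were chosen with earlier results of these data known. Phlda1, in the ERK feedback list, is also a gene the study picked from these samples. Named were the 6 members, up to 3 genes per list and direction with the smallest unadjusted p under 0.05 (otherwise the 2 with the highest mean), and the genes most like each member. Fos, Junb, Fosb, Ier2 and the Elk and Mrtf genes are named beyond that rule, after their values were seen. Lengths and positions are from GENCODE M21, and 19891 identifiers had a symbol there. Of the lists, Fasl had no row, and 1 gene that the rule covers is not reported here. Python 3.11.15 with scipy 1.17.1 was used for exact tests.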

Additional observations from a re-analysis of the deposited data

Results flagged for a closer look

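In 7 of 62 groups of 5 lines, 1 line stood apart from the others of its diet by Dixon's criterion on the log2 scale, where the gap to the nearest line is divided by the whole range and 0.71 is the critical value. Chance alone gives about 1 in 20 groups. None of the 12 groups of the Egr and Nab genes was among them. LPD 40 was the lowest LPD line for Srf (0.851), Ccn2 (0.813) and Dusp5 (0.726). LPD 6 was the highest for F3 (0.839), Col1a2 (0.769), Krt8 (0.874) and Krt18 (0.859). No cause was tested.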

How the results depend on the processing

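All 136 fold changes of the 6 genes under an alternative kept their direction, and 135 kept their side of the threshold. The other was Egr3 without LPD 40, at 4.37 (limma, adjusted p = 0.0164), a fit that leaves out its lowest LPD value. When single lines were omitted, the log2 fold changes ran from 1.25 to 2.89 for Egr1, 2.37 to 4.47 for Egr2, 2.72 to 4.37 for Egr3, 2.15 to 3.29 for Egr4, 0.38 to 0.74 for Nab1 and 0.78 to 1.88 for Nab2. The Egr genes were lowest without LPD 1 or 4 and highest without LPD 40. The count of all genes at an adjusted p under 0.1, 0 as reported with 721 at an unadjusted p under 0.05, was 1 with array weights and 0 to 40 with a line left out, 40 without LPD 40. It was 1 without LPD 1, LPD 20 or NPD 8 and 0 without any other line. The count at an unadjusted p under 0.05 was 549 to 903 with a line left out and within 1.5 times under all 22 alternatives. Egr2 and Egr4 had no value at a mean of at least 100. With exons united in place of the longest transcript, no median per kilobase moved beyond the spread between lines. No paired analysis was possible because the diets share no line numbers. Nothing says that the cultures were repeated, so p-values cover the spread between lines. Depth limits Egr2 and Egr3, which held at most 13.3 read equivalents in any NPD line, and Egr4, which held 5.00 in NPD 8 and 4.01 in NPD 15.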

Other observations

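Ier3, an immediate early gene linked to survival, went against the other genes of its list, and was looked at after its values were seen. It had 139, 138, 115, 106 and 515 in LPD 1, 4, 6, 20 and 40 and 99.2, 288, 601, 139 and 309 in NPD 8, 15, 21, 36 and 51. Its highest LPD value was thus in LPD 40, where the Egr genes were lowest. The log2 fold change was -0.52 (limma, standard error 0.50, adjusted p = 0.994). Btg2, an antiproliferative early gene, was at 2291 and 1626 in LPD 1 and 4 and 573 to 1216 in the other lines.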
